A study of Mus musculus with 23 samples.

Results

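The IGF binding protein genes of the mouse, *Igfbp1* to *Igfbp7*, were examined in liver RNA. All 7 were found by gene symbol among the 27179 genes of the count table. The livers of 15 female mice were sampled where no tumor was visible, and 24742910 to 32262649 reads per mouse were counted on genes. Every mouse carried Alb-Cre, which is driven by the albumin promoter and therefore acts in hepatocytes, and floxed Trp53 on both alleles (TRP53 flx/flx). The 6 Ctrl mice had wild-type Braf and 1 floxed Icmt allele (ICMT flx/+). The 6 ABpIF/+ mice had in addition the Braf CA allele, which gives BrafV600E after recombination, with ICMT flx/+. The 3 ABpIF/F mice had the Braf CA allele with ICMT flx/flx, and are all that were obtained of this genotype. The genotype labels of both Braf groups read "BRAF +/+", whereas the design text gives BrafCA/+, and the design text was followed here. Ages and the time of day of collection are not in the sample labels, and per the study the ABpIF/F mice were of different ages. The study also reports that ABpIF/+ mice lost weight and became ill, whereas Ctrl and ABpIF/F mice kept gaining weight. In ABpIF/+ mice genotype and body condition therefore cannot be told apart. The strain label of 5 Ctrl mice differs from that of the Ctrl mouse BG3 and of all Braf mice, so that for those 5 the strain label and the genotype cannot be told apart.

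IGF binding proteins are secreted proteins that hold insulin-like growth factors in blood and tissue and control how much of them reaches the receptor. The liver makes most circulating IGF-I, under the control of growth hormone, and it also makes much of the circulating binding protein. *Igfbp1* is a hepatocyte gene that insulin represses, through forkhead (FOXO) factors, and that rises in fasting and in many kinds of liver stress. *Igfbp2* and *Igfbp4* are also made by hepatocytes. *Igfbp3*, whose product carries most IGF-I in blood together with the acid-labile subunit, is made mainly by other cells of the liver, and *Igfbp5* and *Igfbp6* are genes of connective tissue and other mesenchymal cells. The product of *Igfbp7* binds IGFs weakly and insulin as well, and it is made by endothelial and stellate cells and lies in the vessel wall and matrix.

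Each member is given by its position on GRCm38 (mm10), with the extent that GENCODE M21 gives the gene. *Igfbp1* lies at chr11:7197782-7202546 on the plus strand, and *Igfbp3* lies next to it at chr11:7206086-7213923 on the minus strand, so that their ends face each other across 3539 bases. *Igfbp2* at chr1:72824503-72852474, plus strand, and *Igfbp5* at chr1:72857932-72874884, minus strand, form the same arrangement across 5457 bases. No other gene of the count table lies between the genes of either pair. *Igfbp4* stands alone at chr11:99041244-99054392 on the plus strand, *Igfbp6* at chr15:102144362-102149511 on the plus strand, and *Igfbp7* at chr5:77349240-77408041 on the minus strand. The end of *Igfbp7* overlaps that of *Polr2b* on the opposite strand, and the strand setting of the read counting is not given in the sources used here, so reads in that overlap are uncertain.

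The sequences upstream of the start sites of the 3 members that passed the test in a comparison are shown, since these are the genes whose RNA level the report turns on. They are the 250 bases before the RefSeq start site on GRCm38.p6, written 5′ to 3′ on the strand of the gene. In *Igfbp1* (chr11:7197537-7197786, plus strand) the capitals mark CAAAACA and TATTTTG, both parts of the insulin response sequence for which this promoter is known. In *Igfbp7* (chr5:77408046-77408295, minus strand) they mark GGGCGG on either strand, the core of a GC box. In *Igfbp4* (chr11:99040994-99041243, plus strand) they mark TATAAA, the letters of the box to which the general transcription machinery binds.
Igfbp1: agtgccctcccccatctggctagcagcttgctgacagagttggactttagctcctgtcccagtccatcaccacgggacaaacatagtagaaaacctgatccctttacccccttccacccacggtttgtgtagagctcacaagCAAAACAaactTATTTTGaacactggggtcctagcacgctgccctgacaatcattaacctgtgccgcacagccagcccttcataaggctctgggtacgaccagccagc
Igfbp7: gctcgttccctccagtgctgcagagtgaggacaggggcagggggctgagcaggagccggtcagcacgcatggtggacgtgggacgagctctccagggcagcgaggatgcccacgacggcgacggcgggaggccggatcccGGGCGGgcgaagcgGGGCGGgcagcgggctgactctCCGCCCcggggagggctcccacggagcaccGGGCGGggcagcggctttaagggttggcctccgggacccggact
Igfbp4: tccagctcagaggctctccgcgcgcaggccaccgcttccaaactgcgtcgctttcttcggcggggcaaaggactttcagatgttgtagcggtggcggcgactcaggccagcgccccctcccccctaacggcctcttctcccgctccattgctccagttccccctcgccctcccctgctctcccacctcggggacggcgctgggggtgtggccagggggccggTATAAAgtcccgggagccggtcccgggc

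These and other short motifs were searched on both strands in the RefSeq windows of the 7 members, of which *Igfbp2* has 2, and in all 32817 windows of that table. The parts of the insulin response sequence, CAAAACA at position -108 and TATTTTG at position -97 from the start site, were found in *Igfbp1* and in no window of the other members. Over all windows CAAAACA was present in 5.56% and TATTTTG in 3.95%, and *Igfbp1* held the 1 window of 32817 in which both stood on the same strand with their starts 11 bases apart. Those letters and that spacing are the ones of the *Igfbp1* window, so its match was given in advance. The count says only that no other window held the same pair. GGGCGG, present in 32.7% of all windows, occurred 4 times in *Igfbp7* and 3 times in the first window of *Igfbp2*. TATAAA, present in 12.4% of windows, stood at position -28 in *Igfbp4* and at position -148, on the other strand, in *Igfbp6*. The AP-1 letters TGANTCA, present in 6.75%, occurred in the second window of *Igfbp2*, and the forkhead letters GTAAACA, present in 3.16%, in no member. The base composition also differed among the windows, G and C making up 53.2% of the *Igfbp1*, 69.2% of the *Igfbp4* and 74.0% of the *Igfbp7* window. None of these matches overlapped another. A match of letters is a description of these windows and not a measured binding site.

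Expression was compared in CPM, the reads of a gene per 1000000 reads of a library whose size was scaled by TMM, and a member was called different at an adjusted p under 0.01 and at least a 2-fold change. *Icmt*, the gene deleted in ABpIF/F livers, was at 30.8 ± 2.72 CPM (SD, n = 6) in Ctrl, 32.7 ± 3.49 CPM (SD, n = 6) in ABpIF/+ and 15.8 ± 0.711 CPM (SD, n = 3) in ABpIF/F mice. The hepatocyte markers *Alb*, *Ttr*, *Apoa1*, *Apob*, *Serpina1a*, *Fgb* and *Ahsg* were present in every mouse, with summed levels of 100934 to 139915 CPM in Ctrl, 181608 to 260424 CPM in ABpIF/+ and 140755 to 236041 CPM in ABpIF/F livers. The eighth listed marker, *Tf*, was not found under that symbol. In bulk tissue, fewer cells of a type and less RNA per cell cannot be told apart.

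In ABpIF/+ livers *Igfbp1* was higher than in Ctrl livers and *Igfbp7* lower, and the other 5 members were not called. These 2 of 7 members compare with 10.0% of all 27179 genes called in this comparison, and with 17.6% of the 12316 genes that averaged 1 CPM or more over the 15 mice, as all 7 members did. In ABpIF/F livers *Igfbp1* alone was called against Ctrl, 1 of 7 members, where 6.93% of all genes and 12.6% of those averaging 1 CPM or more were called. Between the Braf groups *Igfbp4* was higher and *Igfbp7* lower in ABpIF/+ livers, 2 of 7 members, where 7.24% of all genes and 12.2% of those averaging 1 CPM or more were called. The median log2 fold change of the 7 members was 0.20, 0.22 and 0.71 in the 3 comparisons, and that of the genes averaging 1 CPM or more was 0.02, 0.00 and 0.04. The comparisons share mice, each group entering 2 of them, so their values are set side by side and are not independent of each other.

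**Figure D1:**
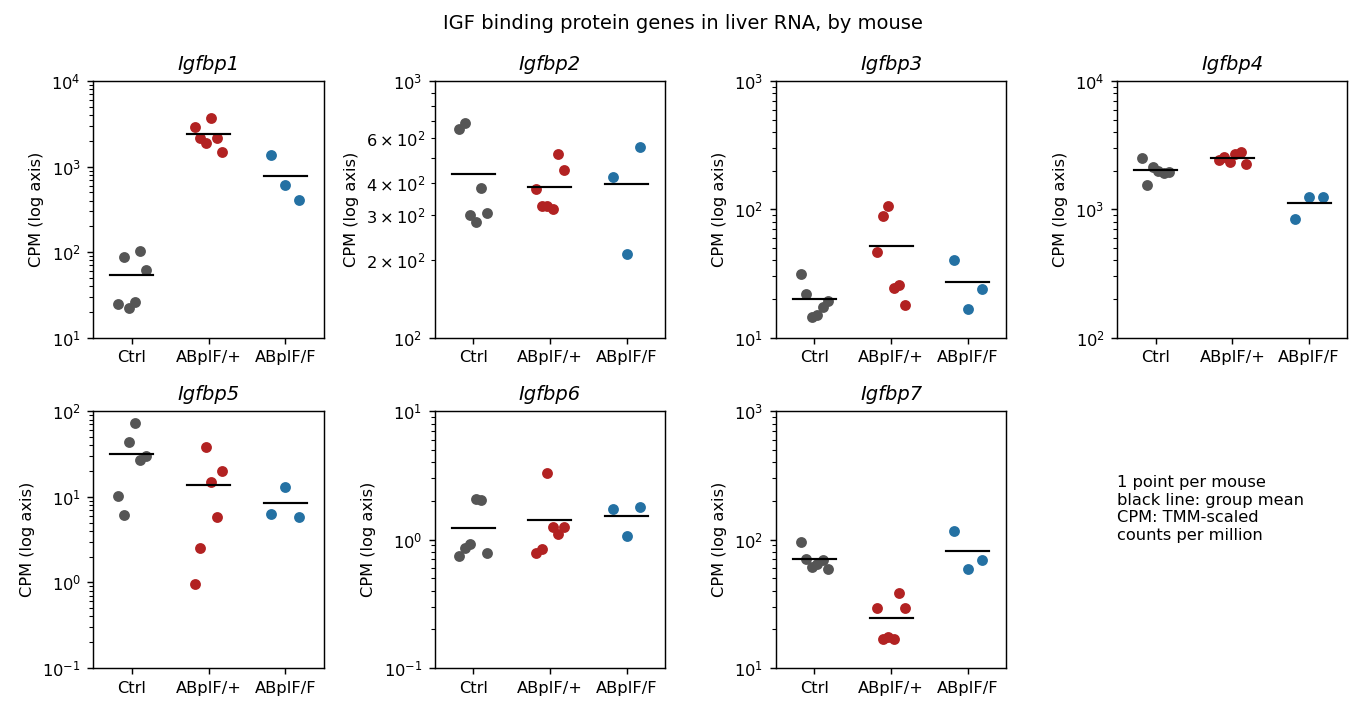
Level of each IGF binding protein gene (CPM, log axis) in Ctrl (n = 6), ABpIF/+ (n = 6) and ABpIF/F (n = 3) livers, with 1 point per mouse and the group mean as a black line. *Igfbp1* rose from 22.1 to 103 CPM in Ctrl mice to at least 1495 CPM in every ABpIF/+ mouse and 404 CPM in every ABpIF/F mouse, and *Igfbp7* was at or below 38.4 CPM in ABpIF/+ mice only.

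*Igfbp1* had the largest fold changes of the members against Ctrl. In Ctrl mice its level was 22.1 CPM at the lowest, 44.2 CPM at the median and 103 CPM at the highest. In ABpIF/+ mice it was 1495 CPM at the lowest, 2153 CPM at the median and 3691 CPM at the highest. In the ABpIF/F mice it was 1350 CPM in BG38, 604 CPM in BG90 and 404 CPM in BG183. Both Braf groups lay wholly above Ctrl, and the ABpIF/F mice lay below all ABpIF/+ mice. The gap between the Braf groups depended on the scaling. The TMM factor was 1.24 in BG38 and 0.846 to 1.09 in the other mice, and without TMM the Braf groups overlapped, the highest ABpIF/F mouse being at 1097 and the lowest ABpIF/+ mouse at 950 CPM per kb of exon. The read counts behind these levels were 604 to 3326 in Ctrl, 46758 to 97828 in ABpIF/+ and 12392 to 48742 in ABpIF/F mice. The log2 fold change was 5.45 ± 0.53 (SE) in ABpIF/+ against Ctrl (43.6-fold, adjusted p = 2.69e-06, edgeR quasi-likelihood test), and 3.85 ± 0.53 in ABpIF/F against Ctrl (14.4-fold, adjusted p = 0.000143). The level in ABpIF/+ was 3.02-fold that in ABpIF/F livers, a log2 difference of 1.60 with a 95% confidence interval from 0.35 to 2.84, which did not pass (adjusted p = 0.0749, edgeR). Without BG38 this difference was 2.24. Among genes averaging 1 CPM or more, 31.3% did not overlap between ABpIF/+ and Ctrl, 31.6% between ABpIF/F and Ctrl and 34.2% between ABpIF/+ and ABpIF/F mice.

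The spread of *Igfbp1* within groups was wide. Among Ctrl mice BG3, malpa454 and malpa458 were at 24.8, 22.1 and 26.1 CPM, and malpa462, malpa387 and malpa459 at 62.3, 88.0 and 103 CPM. Among ABpIF/F mice, BG38 stood above the other two, near the lowest ABpIF/+ mouse. Without BG38 the log2 fold change against Ctrl was 3.21, and with BG3 as the only Ctrl mouse, which shares its strain label with the Braf mice, it was 4.93 in ABpIF/F and 6.58 in ABpIF/+ livers. Of the genes averaging 1 CPM or more, 17.6% were called in ABpIF/+ and 12.6% in ABpIF/F against Ctrl livers. Of the 10 evening clock genes 1 was higher in ABpIF/+ and 4 were lower in ABpIF/F than in Ctrl livers. Of the 5 morning clock genes 1 was higher in ABpIF/+ than in Ctrl livers. A score made of these genes was at -1.34 to -0.47 in 5 Ctrl mice, 2.41 in the Ctrl mouse malpa387, -1.13 to -0.19 in ABpIF/+ and 1.03 to 3.38 in ABpIF/F mice, so that Ctrl and ABpIF/+ mice overlapped and malpa387 lay within the ABpIF/F range. With this score in the model, the *Igfbp1* fold change in ABpIF/+ livers stayed called (log2 5.49, adjusted p = 3.25e-06, edgeR), and that in ABpIF/F livers was 3.35 on the log2 scale and no longer called (adjusted p = 0.0184, edgeR).

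*Igfbp3*, the tail-to-tail neighbor of *Igfbp1*, was not called in any comparison. Its level was 14.6 to 31.3 CPM in Ctrl mice with a median of 18.5 CPM, and 18.0 to 106 CPM in ABpIF/+ mice with a median of 36.0 CPM. In ABpIF/F mice it was 40.6 CPM in BG38, 16.6 CPM in BG90 and 23.8 CPM in BG183. The ABpIF/+ mice fell apart, with BG30, BG31 and BG40 at 46.5, 88.1 and 106 CPM, above every Ctrl mouse, and BG55, BG88 and BG175 at 24.3, 25.6 and 18.0 CPM, within the range of Ctrl. The log2 fold change in ABpIF/+ against Ctrl was 1.36 with a 95% confidence interval from 0.39 to 2.34 and was not called (adjusted p = 0.0415, edgeR). It passed with DESeq2 (adjusted p = 0.00739) and without robust estimation in edgeR (adjusted p = 0.00667), and with BG3 as the only Ctrl mouse it was 0.71 on the log2 scale (adjusted p = 0.996, edgeR). Against Ctrl, ABpIF/F livers differed by 0.44 on the log2 scale, with an interval from -0.72 to 1.60.

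*Igfbp4* was the member with the highest CPM in Ctrl livers and differed between the Braf groups. In Ctrl mice it was 1545 CPM at the lowest, 1976 CPM at the median and 2509 CPM at the highest. In ABpIF/+ mice it was 2242 CPM at the lowest, 2499 CPM at the median and 2803 CPM at the highest. In ABpIF/F mice it was 847 CPM in BG38, 1253 CPM in BG90 and 1248 CPM in BG183. All ABpIF/F mice were below all other mice, whereas Ctrl and ABpIF/+ mice overlapped. The level in ABpIF/+ was 2.25-fold that in ABpIF/F livers (log2 1.17 ± 0.19 SE, adjusted p = 0.000138, edgeR). Against Ctrl, ABpIF/F livers were lower by a log2 fold change of -0.85 (95% confidence interval -1.23 to -0.46, adjusted p = 0.0020, edgeR), which is short of 2-fold and so not called, and ABpIF/+ livers differed by 0.32 (adjusted p = 0.117). The lowest Ctrl mouse for *Igfbp4* was malpa387, whose clock score was in the range of the ABpIF/F mice. The 9 cholangiocyte markers summed to 49.7 to 88.4 CPM in Ctrl, 55.1 to 176 CPM in ABpIF/+ and 237 to 1200 CPM in ABpIF/F mice. Of them, 7 were called higher in ABpIF/F than in Ctrl livers and 7 higher than in ABpIF/+ livers. In these comparisons 6.93% and 7.24% of all genes were called, and 12.6% and 12.2% of those averaging 1 CPM or more. The part of these markers in the *Igfbp4* result was not tested. With the clock score in the model the difference between the Braf groups was 1.02 on the log2 scale and missed the threshold (adjusted p = 0.0163, edgeR).

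*Igfbp2*, whose gene lies beside *Igfbp5*, was at like levels in the 3 groups. It was 282 to 684 CPM in Ctrl mice with a median of 344 CPM, and 316 to 518 CPM in ABpIF/+ mice with a median of 353 CPM. In ABpIF/F mice it was 424 CPM in BG38, 213 CPM in BG90 and 554 CPM in BG183. All 3 groups overlapped, and the spread in Ctrl came from BG3 and malpa387, at 649 and 684 CPM against at most 381 CPM in the other Ctrl mice. The log2 differences were -0.17 in ABpIF/+ and -0.13 in ABpIF/F livers against Ctrl, with intervals from -0.72 to 0.38 and from -0.80 to 0.55, so that a 2-fold change lay outside both.

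*Igfbp5* and *Igfbp6* were the least expressed members per length and were not called. *Igfbp5* varied more between mice than between groups, from 6.18 to 73.5 CPM in Ctrl, from 0.955 to 38.4 CPM in ABpIF/+ and from 5.84 to 12.9 CPM in ABpIF/F mice. Its log2 fold changes against Ctrl were -1.21 in ABpIF/+ and -1.93 in ABpIF/F livers, with intervals from -2.94 to 0.51 and from -4.23 to 0.37, so that at this spread the data leave room both for no change and for a fall of more than 4-fold. *Igfbp6* was at 0.738 to 2.05 CPM in Ctrl, 0.785 to 3.33 CPM in ABpIF/+ and 1.07 to 1.79 CPM in ABpIF/F mice, which rested on 18 to 86 reads per mouse. Its log2 fold changes against Ctrl were 0.20 and 0.31, with intervals from -0.57 to 0.97 and from -0.61 to 1.23.

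*Igfbp7* was low in ABpIF/+ livers alone. In Ctrl mice it was 58.8 CPM at the lowest, 67.2 CPM at the median and 94.9 CPM at the highest. In ABpIF/+ mice it was 16.7 CPM at the lowest, 23.3 CPM at the median and 38.4 CPM at the highest. In ABpIF/F mice it was 117 CPM in BG38, 59.1 CPM in BG90 and 68.7 CPM in BG183. All ABpIF/+ mice were below all other mice, and of the Ctrl mice all but the lowest lay within the ABpIF/F range. The log2 fold change was -1.50 ± 0.23 (SE) in ABpIF/+ against Ctrl (adjusted p = 8.34e-05, edgeR) and -1.73 ± 0.26 in ABpIF/+ against ABpIF/F (adjusted p = 0.000229, edgeR). ABpIF/F against Ctrl gave 0.22 with an interval from -0.35 to 0.80 (adjusted p = 0.779). With BG3 as the only Ctrl mouse the value in ABpIF/+ was -1.94 and was not called (adjusted p = 0.0240, edgeR). With the clock score in the model the value between the Braf groups was -1.74 and was not called (adjusted p = 0.0138, edgeR).

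Stellate and endothelial cells are known to make *Igfbp7*. Most stellate cell and fibroblast markers, and a smaller part of the endothelial markers, were also lower in ABpIF/+ livers. These are RNA levels, whereas the study reports more collagen staining around portal areas in ABpIF/+ livers and less in ABpIF/F livers. The staining and the RNA markers were not compared here. Of the 12 hepatic stellate cell and fibroblast markers, 10 were lower in ABpIF/+ than in Ctrl livers and 10 lower than in ABpIF/F livers, with none at 0 in any group. Their summed level was 330 to 512 CPM in Ctrl, 87.2 to 178 CPM in ABpIF/+ and 299 to 472 CPM in ABpIF/F mice. Of the 10 endothelial markers, 3 were lower in ABpIF/+ than in Ctrl and 2 lower than in ABpIF/F livers, and the others were not called. Their summed level was 230 to 347 CPM, 99.3 to 232 CPM and 231 to 356 CPM in the 3 groups. Of the genes averaging 1 CPM or more, 17.6% and 12.2% were called in either direction in these 2 comparisons. The median log2 fold change in ABpIF/+ against Ctrl was -2.09 for the stellate and fibroblast markers and -0.92 for the endothelial markers, and the value of *Igfbp7* lay between them. Of the 8 Kupffer cell and macrophage markers, 4 were lower in ABpIF/+ than in Ctrl livers and 5 lower than in ABpIF/F livers. The part of these cell types in the *Igfbp7* result was not tested.

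**Figure D2:**
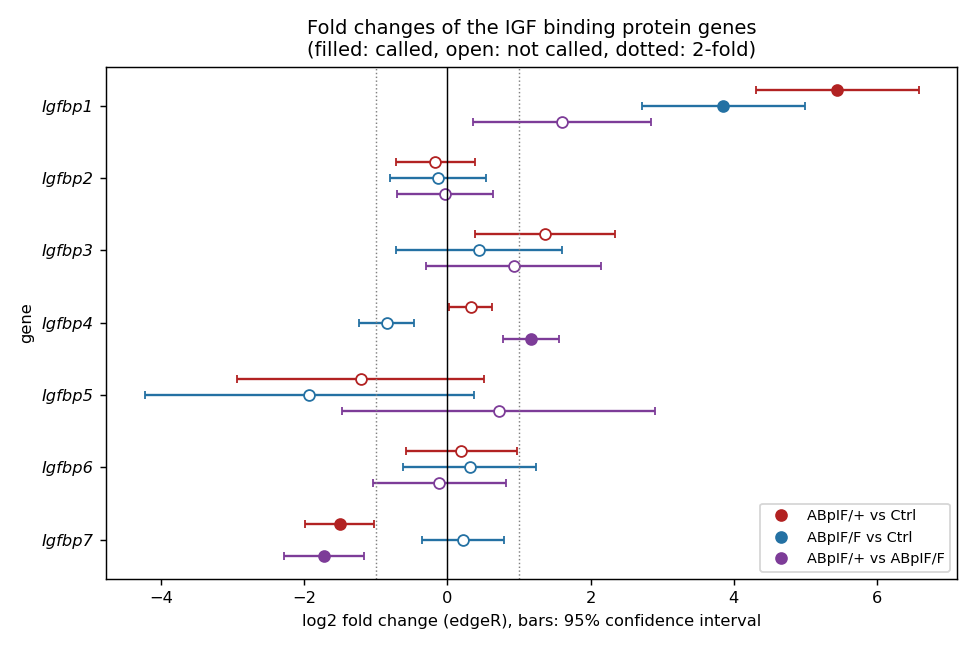
Log2 fold changes of the 7 members (edgeR) in the 3 comparisons, with 95% confidence intervals, filled points for called and open points for not called members, and dotted lines at 2-fold. *Igfbp1* against Ctrl in both Braf groups, *Igfbp7* in ABpIF/+ against both other groups, and *Igfbp4* between the Braf groups are filled, and the intervals of *Igfbp5* are the widest.

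Levels were set on a common scale by dividing CPM by the exon length of each gene in kilobases. In Ctrl livers the order was *Igfbp4* at 455 ± 70.7 CPM per kb (SD, n = 6), *Igfbp2* at 235 ± 99.3, *Igfbp7* at 57.9 ± 10.8, *Igfbp1* at 35.7 ± 23.3, *Igfbp3* at 6.38 ± 1.99, *Igfbp5* at 5.29 ± 4.10 and *Igfbp6* at 1.11 ± 0.573. The ranges over mice overlapped between the neighbors *Igfbp4* and *Igfbp2*, *Igfbp7* and *Igfbp1*, *Igfbp3* and *Igfbp5*, and *Igfbp5* and *Igfbp6*. Overlap of ranges leaves aside that both genes of a pair were measured in the same mice. Within a mouse the first of each pair was the higher in 5, 5, 4 and 6 of the 6 Ctrl mice. In ABpIF/+ livers *Igfbp1* came first at 1558 ± 516 CPM per kb, ahead of *Igfbp4* at 570 ± 50.2 and *Igfbp2* at 209 ± 44.4, and these 3 did not overlap. In ABpIF/F livers *Igfbp1* was at 516 ± 327 CPM per kb (SD, n = 3), *Igfbp4* at 253 ± 52.7 and *Igfbp2* at 215 ± 93.2, and the ranges of all 3 overlapped. By group means, *Igfbp3*, *Igfbp5* and *Igfbp6* kept the last 3 places in every group. In ABpIF/+ mice the ranges of *Igfbp7* and *Igfbp3* overlapped, and *Igfbp7* was the higher in 4 of the 6 mice.

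The summed level of the family was highest in ABpIF/+ livers. It was 796 ± 126 CPM per kb (SD, n = 6) in Ctrl, 2377 ± 523 (SD, n = 6) in ABpIF/+ and 1062 ± 311 (SD, n = 3) in ABpIF/F livers. All ABpIF/+ mice, at 1767 to 3232 CPM per kb, were above all others, and the ABpIF/F mice, at 852 to 1419, overlapped the Ctrl mice, at 697 to 1027. Without TMM the lowest ABpIF/+ mouse was at 1713 and the highest ABpIF/F mouse at 1759 CPM per kb, so that these groups overlapped. *Igfbp1* made up 1.58% to 8.69% of the sum in Ctrl mice, 55.5% to 74.9% in ABpIF/+ mice and 29.0% to 62.4% in ABpIF/F mice. The share of *Igfbp4* was 57.8% ± 9.28 in Ctrl, 24.6% ± 3.89 in ABpIF/+ and 25.9% ± 10.8 in ABpIF/F livers, and that of *Igfbp2* was 28.8% ± 8.64, 9.24% ± 3.09 and 20.8% ± 10.4. The share of *Igfbp7* was 7.25% ± 0.365 in Ctrl, 0.898% ± 0.385 in ABpIF/+ and 6.26% ± 0.554 in ABpIF/F livers. These sums and shares are descriptions of RNA levels and were not tested.

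**Figure D3:**
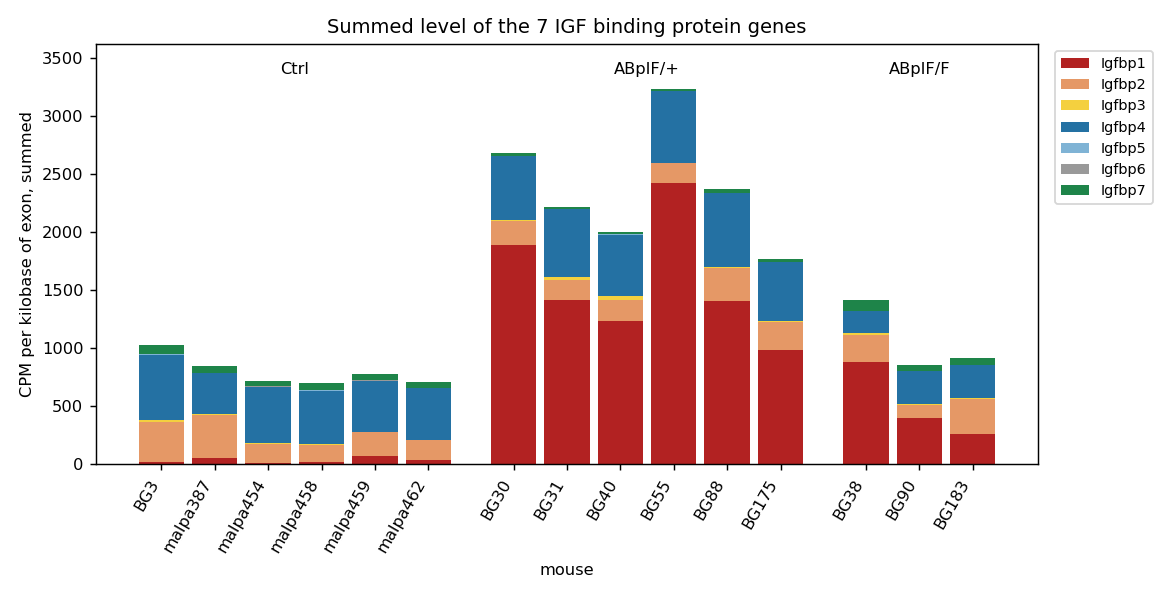
Summed level of the 7 genes in each mouse (CPM per kilobase of exon, linear axis from 0), with 1 bar per mouse and 1 color per gene. The bars of ABpIF/+ mice reach 1767 to 3232 and are mostly *Igfbp1*, those of Ctrl mice reach 697 to 1027 and are mostly *Igfbp4* and *Igfbp2*, and *Igfbp1* fills 29.0% to 62.4% of the ABpIF/F bars.

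The other genes of the IGF system were followed in a list of 35 genes, of which 23 averaged 1 CPM or more. In ABpIF/+ against Ctrl livers 2 were higher and 8 lower, and in ABpIF/F against Ctrl livers 7 were higher and 3 lower. Between the Braf groups none was higher and 5 were lower in ABpIF/+ livers. In these comparisons 10.0%, 6.93% and 7.24% of all genes were called, and 17.6%, 12.6% and 12.2% of those averaging 1 CPM or more. Of all genes, 1275 were higher and 1454 lower, 1236 higher and 647 lower, and 478 higher and 1491 lower. Whether this list differs from all genes was not tested. The genes of the other partners in the carrier complex that the *Igfbp3* product forms fell in both Braf groups. *Igf1*, which encodes IGF-I, was 570 to 929 CPM in Ctrl, 266 to 417 CPM in ABpIF/+ and 142 to 392 CPM in ABpIF/F mice, and fell by 1.11 and 1.59 on the log2 scale (adjusted p = 0.000111 and 8.17e-05, edgeR). *Igfals*, which encodes the acid-labile subunit, was 97.8 to 187 CPM in Ctrl, 23.1 to 30.5 CPM in ABpIF/+ and 27.7 to 69.9 CPM in ABpIF/F mice, and fell by 2.64 and 1.71 (adjusted p = 2.11e-09 and 2.73e-05, edgeR). For both genes every Braf mouse was below every Ctrl mouse. *Ghr*, the growth hormone receptor gene, likewise had log2 fold changes of -1.50 and -1.89 (adjusted p = 4.09e-07 and 2.12e-06, edgeR).

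Among ligands and receptors, *Igf2* was 0.447 to 1.31 CPM in Ctrl, 1.94 to 9.09 CPM in ABpIF/+ and 59.2, 12.8 and 3.95 CPM in the ABpIF/F mice BG38, BG90 and BG183. It was called in ABpIF/F livers (log2 4.89, adjusted p = 0.000259, edgeR) and not in ABpIF/+ livers (log2 2.38, adjusted p = 0.0123). BG38 was also the ABpIF/F mouse with the highest *Igfbp1*, *Igfbp3* and *Igfbp7* and the lowest *Igfbp4*. *Igf1r*, the IGF-I receptor gene, was 2.12 to 3.54 CPM in Ctrl and 3.43 to 12.9 CPM in ABpIF/F mice (log2 1.56, adjusted p = 0.0014, edgeR), and in ABpIF/+ livers it differed from Ctrl by -0.11. *Insr*, the insulin receptor gene, was not called in any comparison, with log2 differences of 0.23, 0.09 and 0.14, nor was *Igf2r*, the receptor that clears IGF-II, with -0.41, 0.31 and -0.72.

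Of the genes whose products act on the binding proteins, *Pappa* and *Stc2* had few reads. *Pappa*, a protease of the *Igfbp4* product, had 0 to 11 reads in Ctrl, 0 to 6 in ABpIF/+ and 5 to 35 in ABpIF/F mice and was not called. *Stc2*, whose product blocks that protease, had 1 to 11 reads in Ctrl, 0 to 1 in ABpIF/+ and 2 to 15 in ABpIF/F mice, and was called lower in ABpIF/+ against both groups (adjusted p = 0.0013 and 0.0040, edgeR). *Htra1*, a secreted protease that cuts *Igfbp5* protein, was 1.57 to 2.92 CPM in Ctrl, 0.0403 to 0.700 CPM in ABpIF/+ and 0.715 to 2.35 CPM in ABpIF/F mice, and was lower in ABpIF/+ livers by a log2 fold change of -2.36 against Ctrl (adjusted p = 5.74e-05, edgeR). Of genes that carry an IGF binding protein domain without being members, *Kazald1* rose in both Braf groups (log2 3.30 and 3.15), as did *Esm1*, an endothelial cell gene (log2 3.64 and 4.39). *Igfbpl1* had 0 reads in all Ctrl mice and 1 to 14 in ABpIF/F mice, where it was called. *Ccn4* and *Ccn5*, which encode matrix proteins with such a domain, were lower in ABpIF/+ than in ABpIF/F livers (log2 -3.12 and -4.19), at 0.0737 to 0.546 CPM and at 0 to 3 reads in ABpIF/+ mice.

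**Figure D4:**
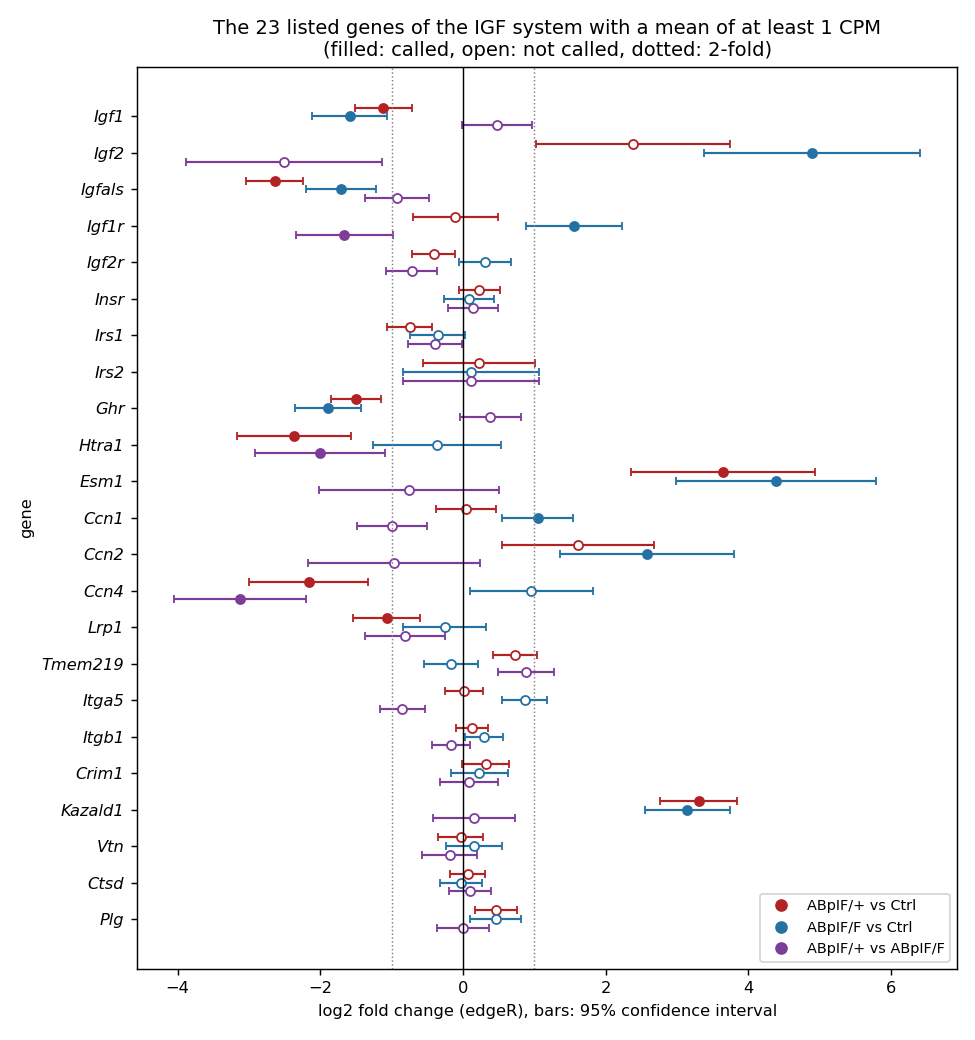
Log2 fold changes (edgeR) with 95% confidence intervals of the 23 listed IGF system genes that averaged 1 CPM or more, with filled points for called and open points for not called genes and dotted lines at 2-fold. *Igf1*, *Igfals* and *Ghr* lie left of 0 and *Esm1* and *Kazald1* right of 0 in both comparisons with Ctrl, and *Insr* lies near 0 in all 3.

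Of the other genes that insulin, fasting and growth hormone regulate, most of those called were lower in the Braf groups than in Ctrl livers. All genes of these lists averaged 1 CPM or more, where 17.6% were called in ABpIF/+ and 12.6% in ABpIF/F against Ctrl livers. Over all genes, 1275 were called higher and 1454 lower in ABpIF/+ livers, and 1236 higher and 647 lower in ABpIF/F livers. Whether the lists differ from all genes was not tested. Of 16 listed insulin and FOXO-regulated genes, 1 was higher and 2 lower in ABpIF/+ than in Ctrl livers, and 0 were higher and 4 lower in ABpIF/F livers. *Pck1* and *G6pc1*, gluconeogenic genes that insulin represses, fell in ABpIF/F livers by 1.70 and 2.36 on the log2 scale (adjusted p = 0.0017 and 0.0018, edgeR). In ABpIF/+ livers neither was called and *Ppargc1a*, a coactivator of gluconeogenesis, rose (log2 1.43, adjusted p = 1.23e-05, edgeR). Between the Braf groups *Pck1* and *Ppargc1a* were higher in ABpIF/+ livers (log2 2.10 and 1.36, adjusted p = 0.00039 and 0.00067, edgeR). The other genes of the insulin and FOXO list were not called between these groups. In the same comparison 4 of the 10 evening clock genes were higher and 1 of the 5 morning clock genes was lower. Of all genes averaging 1 CPM or more, 12.2% were called there. The part of the time of collection in the differences of *Pck1* and *Ppargc1a* was not tested. That of insulin in the *Igfbp1* levels was not tested either. The lipogenic genes *Fasn* and *Scd1*, which insulin induces, were lower in both Braf groups, by 1.74 and 1.83 on the log2 scale in ABpIF/+ and by 2.32 and 1.76 in ABpIF/F livers. Of 13 fasting genes, 1 rose and 5 fell in ABpIF/+ and 0 rose and 8 fell in ABpIF/F livers, among them *Cyp4a10* and *Acot1*, targets of PPAR-alpha, in both. Of 11 growth hormone and STAT5 genes, 1 rose and 3 fell in ABpIF/+ and 0 rose and 4 fell in ABpIF/F livers, and *Igf1*, *Igfals* and *Ghr* were the 3 that fell in both. The 1 that rose in ABpIF/+ livers was *Cish* (log2 1.62, adjusted p = 0.0077, edgeR). The other that fell in ABpIF/F livers was *Cux2* (log2 -2.39, adjusted p = 0.00015, edgeR).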

How the data were processed

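RNA of 15 livers was measured by sequencing. Per the labels and the study, total RNA was purified with Trizol and made into stranded mRNA libraries, reads were aligned to mm10 with HISAT2 (version 2.21 in the submitters' processing notes) and counted with featureCounts 2.0.8, and the annotation and strand setting are not given in the sources used here. The deposited values are raw read counts of 27179 genes, not normalized by the authors, in 1 column per mouse. The 15 mice are listed as 23 samples, 8 mice by 2 samples each, so libraries of a mouse were not told apart. Counts were read from the raw count table and symbols from a second table. That table also held columns of the authors' own comparisons, namely log2 fold changes, mean log CPM, F statistics, p-values and FDR, which were not used, and 5 columns of values whose names matched no sample, also not used. Its other 10 mouse columns equalled the raw counts in every cell.

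Counts were fitted in R 4.3.3 with edgeR 4.0.16 (TMM, quasi-likelihood test in the form of edgeR 3.36, robust, all 15 mice in 1 fit with 3 groups), and p-values were adjusted by Benjamini-Hochberg over all 27179 genes. The thresholds of a call, an adjusted p under 0.01 with a log2 change of 1 or more in size, were those the study's results used, while its methods give 0.05 for the adjusted p. At these thresholds 2729, 1883 and 1969 genes were called here in the 3 comparisons, in each more than the study reported. The calls and shares given here are therefore not those of the study. The mice are separate animals. Lengths are unions of exons in GENCODE M21. Likeness is Pearson's r of log2 CPM (prior count 2) after removing group means. The named genes were the 7 members, 10 fixed genes (*Icmt* and genes of the IGF system), and up to 4 called genes with the largest fold change per list and comparison. The clock score is the mean standardized log2 CPM of the morning minus that of the evening clock genes. The members and lists were chosen with earlier results of these data known. Alternatives were DESeq2 1.42.0, RLE or no scaling, filterByExpr, edgeR 4's quasi-likelihood, no robust estimation, other thresholds, only the groups compared, BG3 as the only Ctrl mouse, the clock score as a covariate, and leaving out each mouse. The tests were checked on simulated counts.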

Additional observations from a re-analysis of the deposited data

Results flagged for a closer look

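*Igfbp6* in the ABpIF/+ mouse BG40 stood apart from the other ABpIF/+ mice, at 3.33 CPM, its gap to the next mouse being 0.687 of the range of log2 CPM where the limit for 6 mice is 0.625. This was the 1 group with such a mouse of 14 tested, and chance flags about 1 in 20 groups. BG40 was also the ABpIF/+ mouse with the highest *Igfbp5*, at 38.4 CPM.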

How the results depend on the processing

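The number of members called did not change in any of the 15 fits that left out 1 mouse (2, 1 and 2 in ABpIF/+ against Ctrl, ABpIF/F against Ctrl and ABpIF/+ against ABpIF/F), nor with RLE scaling, no TMM, filterByExpr, edgeR 4 or only the groups compared. DESeq2, no robust estimation and an adjusted p under 0.05 each added *Igfbp3* in the first comparison. At a log2 fold change of at least 2 the counts were 1 in the first and 0 in the third comparison, and with any fold change 2 members were called in the second (*Igfbp1* and *Igfbp4*), by construction of the threshold. With BG3 as the only Ctrl mouse 1 member was called in the first comparison, and the uncalled values of *Igfbp5* in ABpIF/+ (0.41) and of *Igfbp3* and *Igfbp7* in ABpIF/F against Ctrl (-0.26 and -0.26) changed sign. The lone mouse is there assumed to vary like those of the other groups. With the clock score as a covariate 0 members were called in the second and 0 in the third comparison (edgeR, where 2 and 3 members had an unadjusted p under 0.05), *Igfbp2* (0.16) and *Igfbp5* (-0.84) changed sign in the third, and the cause was not tested. No other tool was run with this covariate. Leaving out a mouse changed the sign of values that were not called. *Igfbp2* ranged from -0.27 (without BG88) to 0.0079 (without malpa387), from -0.45 to 0.17 and from -0.34 to 0.28 in the 3 comparisons, the last 2 ranges set by BG90 and BG183. *Igfbp6* ranged from -0.25 (without BG40) to 0.40 in ABpIF/+ against Ctrl and from -0.56 to 0.011 in ABpIF/+ against ABpIF/F, and *Igfbp7* in ABpIF/F against Ctrl from -0.13 (without BG38) to 0.41. No TMM shifted the median of all genes by -0.18, 0.01 and -0.19 on the log2 scale.

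With the length of the longest transcript, an alternative chosen after seeing the data, the level in ABpIF/+ livers was 296 CPM per kb for *Igfbp2* and 657 for *Igfbp4*, the summed level in Ctrl livers was 965 CPM per kb, and the share of *Igfbp7* was 6.04% in Ctrl and 5.60% in ABpIF/F livers. *Igfbp3* then stood above *Igfbp7* in ABpIF/+ livers and *Igfbp2* above *Igfbp4* in ABpIF/F livers. The other mean levels and shares moved by less than the spread over mice, and without TMM all means did so. The second deposited table was not run as an alternative, because 5 of its columns were not used. No paired analysis was possible because the numbers in the sample titles mark libraries of the same mouse and pair no mice across groups. The intervals of *Igfbp5* and *Igfbp1* span several fold in every comparison, and *Igfbp6* rests on 18 to 86 reads per mouse.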

Other observations

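The genes whose levels varied most like each member within the groups were listed by Pearson's r of the deviations from the group means over 15 mice, as the highest of 12309 genes and therefore as a description only. For *Igfbp7* they were *Bgn* (r = 0.91), *Dcn* (r = 0.90) and *Slc43a3* (r = 0.90), the first 2 being small matrix proteoglycans of fibroblasts and stellate cells. *Bgn* was 50.8 to 71.0 CPM in Ctrl mice, 8.28 to 21.9 CPM in ABpIF/+ mice and at least 40.5 CPM in ABpIF/F mice. For *Igfbp5* they were *Upk3b* (r = 0.92), a gene of the mesothelium that covers the liver, *Slc4a2* (r = 0.90) and *Nploc4* (r = 0.89). *Upk3b* and *Igfbp5* were both lowest in BG30 and highest in BG40 among ABpIF/+ mice, at 0.0341 and 2.55 CPM for *Upk3b* and 0.955 and 38.4 CPM for *Igfbp5*. The 5 mesothelial markers summed to 1.53 to 7.77 CPM in Ctrl, 0.205 to 11.1 CPM in ABpIF/+ and 3.43 to 9.80 CPM in ABpIF/F mice.

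For the members of hepatocytes, the genes most alike were *Nop58* (r = 0.89), *Ncoa5* (r = 0.86) and *Zscan22* (r = 0.86) for *Igfbp1*, *Klf2*, *Casp6* and *Lsm2* (r = 0.86 each) for *Igfbp2*, and *Hgsnat*, *Adk* (r = 0.90 each) and *Os9* (r = 0.89) for *Igfbp4*. For *Igfbp3* they were *Vnn3* (r = 0.90), *Slc25a47* (r = 0.87) and *Tkfc* (r = 0.84), and for *Igfbp6* *Zfp41* (r = 0.86), *1110002L01Rik* (r = 0.84) and *Pdcd11* (r = 0.83). Among the members themselves r ranged from -0.58 between *Igfbp1* and *Igfbp4* to 0.65 between *Igfbp5* and *Igfbp6*. The neighbors *Igfbp1* and *Igfbp3* had r = 0.11 and the neighbors *Igfbp2* and *Igfbp5* r = -0.51 over the same 15 mice.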
